A study of Xenopus laevis with 2 samples.

Results

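Genes for BMP ligands and for the secreted proteins that act on them outside the cell were examined in animal caps of Xenopus laevis. An animal cap is the prospective ectoderm of an early embryo, and these caps had been made to express xnr2, a Nodal ligand. The members were all gene models in the deposited table that carry 1 of 10 symbols: the ligands BMP2, BMP4 and BMP7, the antagonists CHRD, NOG, FST and GREM1, the modulators TWSG1 and BMPER, and the protease BMP1. This rule found 31 of the 24364 models in the table, and each of the 10 symbols was present among 13465 (97.9% of models carry a symbol). Both libraries belong to 1 group, numbered 1 and 3 in the labels. The embryos received xnr2 RNA at an early cleavage stage, their caps were cut at stage 10 and grown to stage 14, a neurula stage, and each RNA sample came from a pool of 10 explants. The strain and the RNA dose are not given in the sources used here, and the labels do not say that the pools came from different clutches. The spread between the libraries, and every p-value that sets them against each other, may therefore be technical. No uninjected caps enter any statement here, and a level is therefore not a response to xnr2. In pooled explants, fewer cells of a type and less RNA per cell cannot be told apart.

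BMPs are secreted dimers of the TGF-beta superfamily that act through serine/threonine kinase receptors and SMAD proteins. In the Xenopus gastrula, BMP signals are known to favour ventral and epidermal fates. They are opposed on the dorsal side by the antagonists chordin, noggin and follistatin, which the Spemann organizer secretes and which bind BMPs before these reach their receptors. Proteases of the tolloid type, to which the product of BMP1 belongs, cleave chordin and free the bound ligand. The twisted gastrulation protein (TWSG1) and crossveinless-2 (BMPER) bind BMP or chordin-BMP complexes and adjust how much ligand stays free.

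Library 1 held 25880104 exon reads and library 3 held 29238297, recovered as whole numbers from the deposited values. Levels are given in CPM, exon reads scaled to the exon total of the library, and in RPKM, which is CPM divided by exon length in kilobases. Levels of members are compared with each other in RPKM. Thresholds, sums over marker lists and the choice of a list's highest models use CPM. Where no read was found, counting error alone leaves room for 0.116 CPM in library 1 and 0.103 CPM in library 3 (3 reads). As a check of the tissue, markers of epidermis and ectoderm summed to 3997 and 4389 CPM in libraries 1 and 3, with KRT8, KRT18 and CDH1 at the top. Of the 40 models in this list, 21 passed 1 CPM in each library. Another 3 were without reads in either: EPCAM on 8L and KRT12 models on 9_10S. EPCAM on 5L stood at 64.3 and 69.9 CPM, and the highest KRT12 model, also on 9_10S, at 27.7 and 2.36 CPM. Markers of paraxial mesoderm and muscle summed to 20501 and 20310 CPM. Markers of notochord and organizer summed to 194.9 and 337.9 CPM, those of ventral and lateral mesoderm to 1249 and 1150 CPM, those of endoderm to 194.5 and 167.3 CPM and those of neural plate to 546.8 and 580.3 CPM. GATA1 and HHEX had 0 reads in both libraries for both of their models, as had models of TAL1 (4S), HAND1 (3S) and PAX6 (7S).

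The table names Xenopus genes after human ones, and several members share a symbol. To separate them, the 10 named models on either side of each member were compared with the genes on either side of BMP family genes in the RefSeq annotation of assembly Xenopus_laevis_v10.1. A model took the name of the RefSeq gene that shared at least 5 neighbours with it, which 30 of 31 models had, with 6 to 14 shared. The symbol and the RefSeq name went together for 20 models, and 10 models stood beside a differently named gene. The models called BMP2 on 1L and 1S lay where RefSeq has admp.L and admp.S, each with 6 shared neighbours, the fewest of the matched models. The admp gene encodes the anti-dorsalizing morphogenetic protein, a BMP-type ligand of the organizer. The model called BMP2 on 7L lay where RefSeq has admp2.L. The models called TWSG1 on 1L and 1S lay at twsg2, and the model called BMPER on 3L lay at kcp.L, the gene of kielin/chordin-like protein. Of 6 models called NOG, those on 9_10L (27214267 to 27216106) and on Scaffold27 lay at nog, those on 9_10L (104486193 to 104489208) and 9_10S at nog2, and those on 4L and 4S at nog4. The models called BMP7 on 9_10L and 9_10S lay at bmp7.1 and those on 3L and 3S at bmp7.2. The CHRD model on 5L shared 14 neighbours with chrd.1.L and 13 with chrd.2.L, which lie side by side, and is called chrd.1 below without a decision between them. The model called BMP2 on 7L shared 13 neighbours with admp2.L and 7 with gdf2.L. The BMP1 model on 8L matched no family gene and held 1 read in library 1 and 0 in library 3. Positions are those of X. laevis assembly version 9.1, as deposited.

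Chordin RNA was the most abundant of the family in both libraries. With L and S copies added, chrd.1 stood at 81.4 RPKM in library 1 and 148.5 RPKM in library 3 (115 ± 47.5, SD, n = 2). The next genes were bmp7.1 at 65.5 and 32.0 RPKM and twsg1 at 51.1 and 38.8 RPKM. The range of chordin did not overlap that of bmp7.1, while bmp7.1 and twsg1 overlapped and changed places between the libraries. Then came bmp4 at 25.5 and 21.9 RPKM, bmp1 at 16.4 and 24.8 RPKM and fst at 9.92 and 26.0 RPKM. The range of bmp4 lay below that of twsg1 without overlap, bmp4 overlapped bmp1, and bmp1 overlapped fst. The range of fst did not overlap that of the next gene, kcp, at 5.27 and 9.55 RPKM. Below kcp the order was admp, twsg2, bmper, nog, grem1, admp2, bmp2, bmp7.2, nog2 and nog4, and each of these overlapped the one before it. Thus bmp2 itself, with its 2 copies at 1.07 and 0.863 RPKM in all, was a minor ligand beside bmp7.1 and bmp4, and noggin stood far below chordin.

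**Figure D1:**
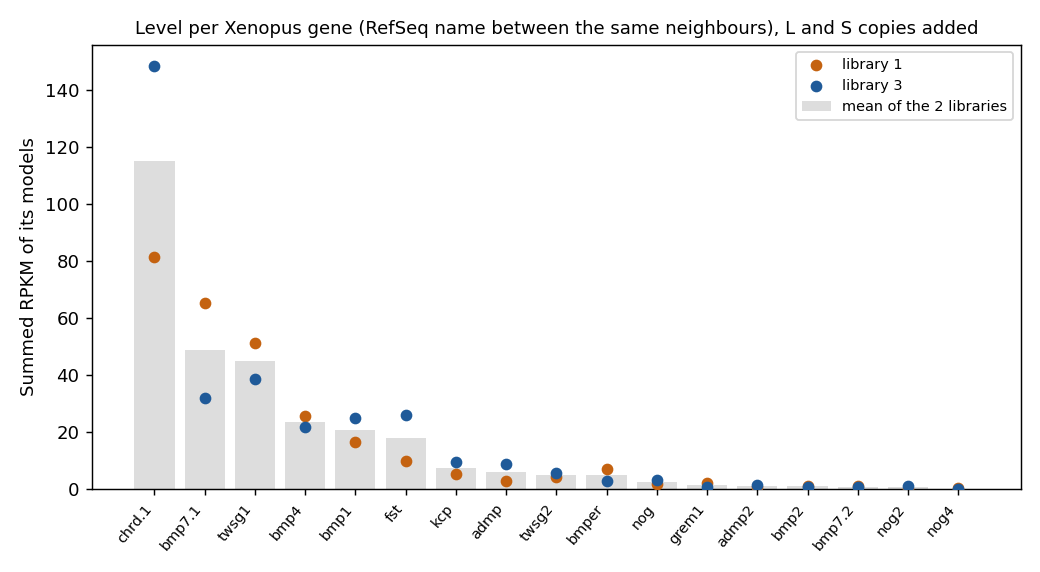
Level of each Xenopus gene of the family, named by the RefSeq gene that has the same neighbours; the vertical axis is the summed RPKM of its models, points are the 2 libraries and bars their mean. Chordin (chrd.1) is highest in both libraries at 81.4 and 148.5 RPKM, and bmp7.1 and fst lie on opposite sides: bmp7.1 is higher in library 1 and fst in library 3.

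Of the 31 models, 23 reached 1 CPM in both libraries, which is 74.2% beside 62.8% of all models. None of the 31 had 0 reads in both libraries, beside 9.26% of all models. Their median was 4.39 CPM beside 4.53 CPM for all models, and 2.92 RPKM beside 1.91 RPKM. The single models spanned from 93.6 ± 33.3 RPKM (SD, n = 2) for CHRD on 5S, rank 963 of 24364 by RPKM, to 0.0107 RPKM for BMP1 on 8L.

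**Figure D2:**
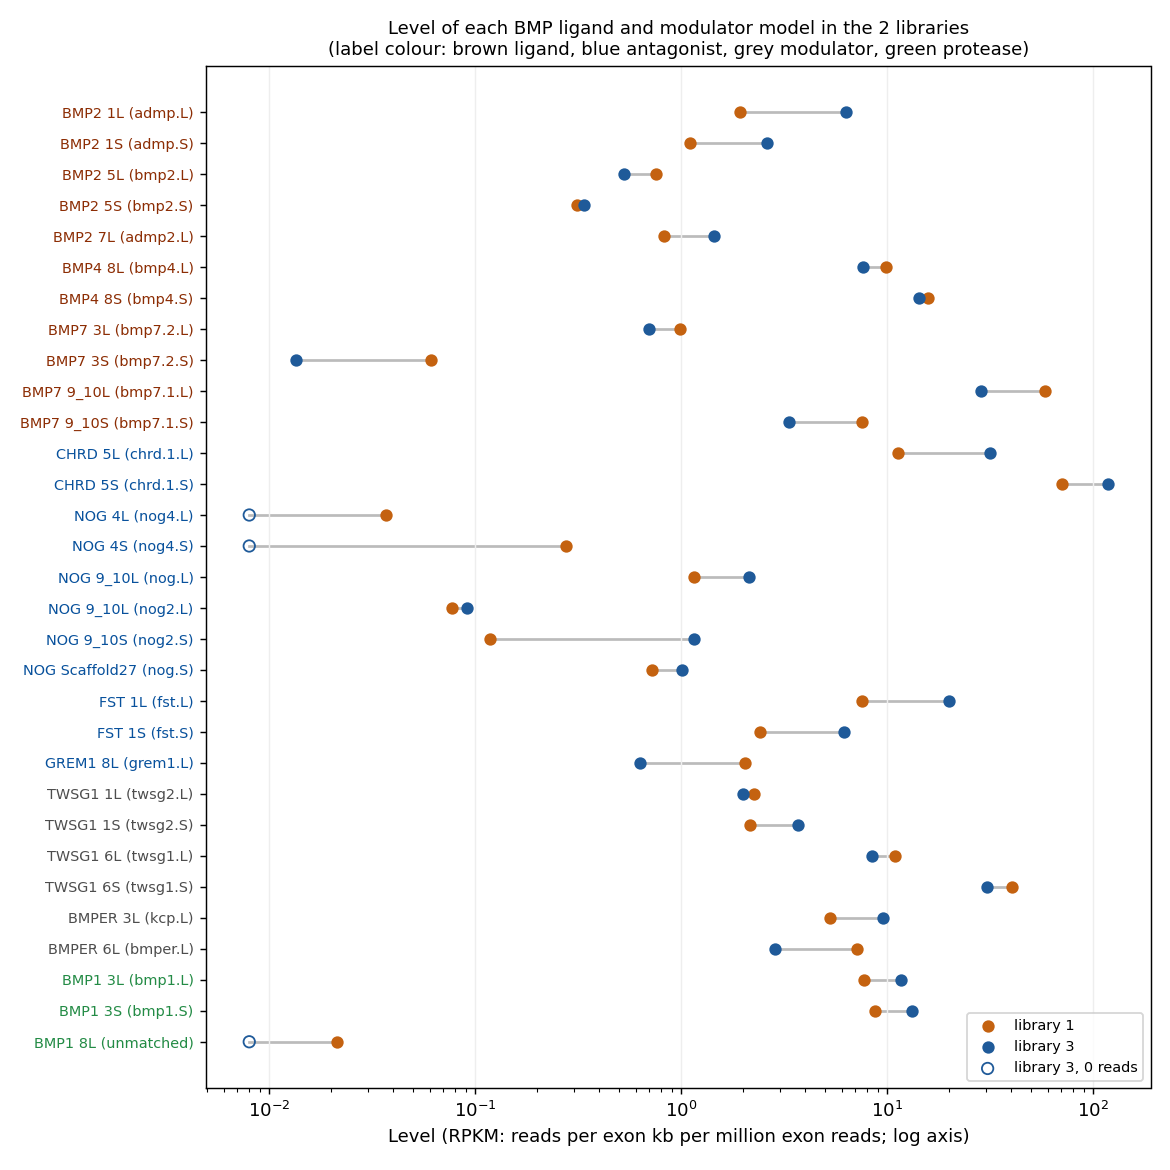
Level of each of the 31 models in both libraries; the horizontal axis is RPKM on a log scale, rows are models with the RefSeq name in brackets, and open circles at the left edge mark 0 reads. The CHRD model on 5S lies furthest right in both libraries, and the models of BMP4, BMP7 (9_10L and 9_10S) and TWSG1 (6L and 6S) lie further left in library 3 than in library 1, while those of CHRD, FST and admp lie further right.

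The libraries differed in most members, with chordin, follistatin and admp higher in library 3 and bmp7.1, bmp4 and twsg1 lower. An exact binomial test of each model's reads, with Benjamini-Hochberg adjustment over the 18820 models whose reads in the 2 libraries add up to 10 or more, was run on 27 of the 31 models. Of these, 13 (48.1%) were higher in library 3 at an adjusted p under 0.05, beside 29.8% of all models tested, and 8 (29.6%) were lower, beside 22.6%. At least 2-fold were 6 higher and 4 lower, where the background was 3.92% and 3.96%. On the log2 scale the members tested had a median ratio of 0.43 (library 3 over library 1), and all models tested had 0.05. This member median takes in models at differently named genes, namely admp, admp2, kcp, twsg2 and nog2. Log2 ratios and folds of single models between the libraries were taken on CPM + 0.1, so they can differ from the ratio of the RPKM values. Higher in library 3 were both tested models of CHRD, FST, BMP1 and admp, with admp2, kcp, a model of nog, a model of nog2 and a model of twsg2. Lower were both models of BMP4, bmp7.1 and twsg1, with bmper and GREM1. The test compares the reads of these 2 libraries and not conditions, and it cannot say how often pools of caps would differ by as much. Of the 20 models that carry the member's own RefSeq name 19 were tested, and 7 were higher and 8 lower. Lower calls thus outnumbered higher ones there, the reverse of all 27 members tested. Longer models tended to be higher in library 3: among models at 10 CPM or more, the median log2 ratio went from -0.14 at exon lengths of 172 to 1514 bases to 0.25 at 4337 to 20100 bases. With that trend removed in 10 classes of length, 13 members were higher and 9 lower, beside 4655 higher and 4758 lower of the 18820 models. Without that correction the numbers over all models were 5617 and 4260. The correction lowered the log2 ratio of long models, from 0.86 to 0.62 for kcp, 0.74 to 0.59 for CHRD on 5S and 0.60 to 0.45 for BMP1 on 3L. For the short nog2 model on 9_10S it rose from 2.27 to 2.41.

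**Figure D3:**
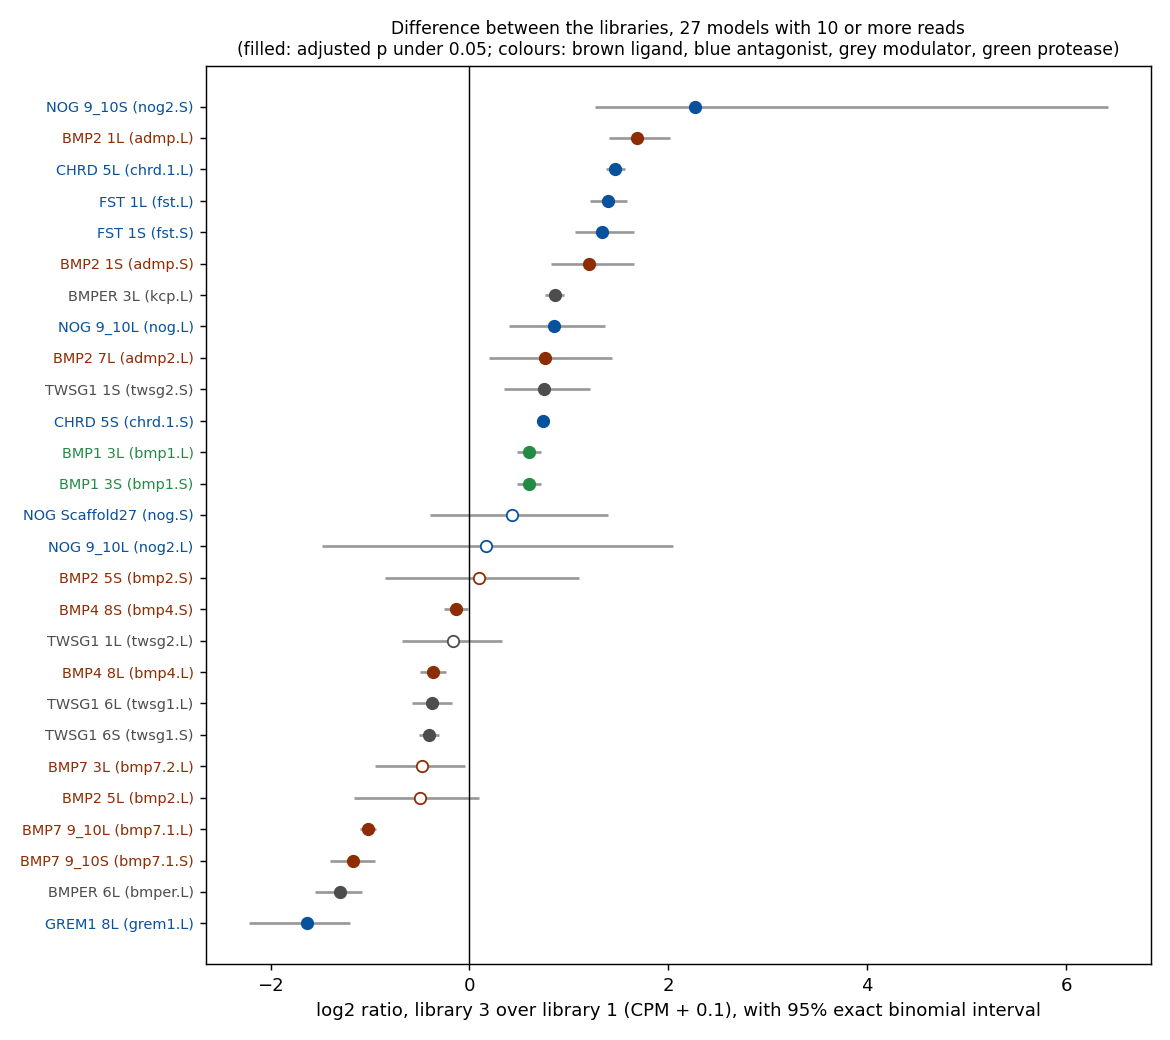
Difference between the libraries for the 27 models with at least 10 reads. The horizontal axis is the log2 ratio of library 3 over library 1 on CPM + 0.1. Lines are 95% exact binomial intervals from the reads with nothing added, and filled points have an adjusted p under 0.05. Models of nog2, admp, CHRD and FST stand at the top, between 1.20 and 2.27 for those above 2-fold, and bmp7.1, bmper and GREM1 at the bottom, between -1.02 and -1.64.

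Tissue markers also had calls between the libraries. Their counts stand beside 29.8% higher and 22.6% lower of all models tested, with a median log2 ratio of 0.05. At least 2-fold, the shares over all models tested were 3.92% higher and 3.96% lower. Of 19 notochord and organizer models tested, 9 were higher in library 3 and 6 lower, with a median log2 ratio of 0.59, and at least 2-fold were 3 higher and 5 lower. Brachyury, given as T, stood at 24.8 and 45.9 RPKM in libraries 1 and 3 on 5L, while goosecoid (GSC), an organizer gene, had 14 reads in library 1 and 0 in library 3 on 8L and 12 and 1 on 8S. Of 34 epidermis and ectoderm models tested, 6 were higher and 21 lower, with a median of -0.78. At least 2-fold were 0 higher and 15 lower, although the summed CPM of the whole list was higher in library 3. The median was 0.41 for muscle (10 of 17 higher, 6 lower), -0.04 for ventral and lateral mesoderm (5 of 19 higher, 7 lower), -0.50 for endoderm (2 of 9 higher, 5 lower) and 0.04 for neural plate (5 of 15 higher, 2 lower). At least 2-fold higher and lower were 2 and 0 muscle models and 0 and 3 of ventral and lateral mesoderm. For endoderm they were 0 and 1, and for neural plate 3 and 1. COL2A1, NOT and NOTO matched no symbol in the table. Nor did MIX1, MIXER, SOX17A and SOX17B of the endoderm list, where SOX17 did match, or SOX2 of the neural plate list. The part of these tissues in the differences of BMP genes was not tested.

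Among the ligands, BMP7 and BMP4 carried most of the RNA, and both were lower in library 3. The BMP7 model on 9_10L (13738733 to 13800979, minus strand, 2217 exon bases), at bmp7.1.L, had 3323 reads in library 1 and 1855 in library 3, or 57.9 and 28.6 RPKM. Its S copy on 9_10S (12421320 to 12481831) had 482 and 241 reads, or 7.56 and 3.35 RPKM. Library 1 was thus the higher by 2.02-fold for the L copy and by 2.24-fold for the S copy, and the intervals of the log2 ratios, -1.02 (95% interval -1.10 to -0.93) and -1.17 (-1.41 to -0.95), overlapped. The adjusted p values of the exact binomial test were 7.04e-135 and 2.78e-25. Differences as large were seen in 2.02% and 1.27% of the 9565 models with a mean of 10 CPM or more.

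BMP4, the ligand best known for ventral and epidermal fates, differed much less. Its model on 8S (13731261 to 13737123, plus strand) stood at 42.9 and 39.0 CPM (15.7 and 14.2 RPKM) and its model on 8L (71269807 to 71275962, minus strand) at 37.6 and 29.2 CPM (9.85 and 7.64 RPKM) in libraries 1 and 3. Both were lower in library 3, by a log2 ratio of -0.14 on 8S (adjusted p = 0.0459, exact binomial test) and -0.37 on 8L (adjusted p = 2.77e-07). Of the models at 10 CPM or more, 70.8% and 32.1% differed by at least as much. The call of the 8S model was lost when no minimum of reads was set, with an adjusted p of 0.0536 in the exact binomial test. In the other alternatives the adjusted p lay between 0.00169 and 0.0459.

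The models called BMP2 did not move together. Those at bmp2, on 5L (1057727 to 1068985) and 5S (26312643 to 26324593), had 51 and 18 reads in library 1 and 40 and 22 in library 3. Neither passed the exact binomial test, with adjusted p values of 0.165 and 0.976 and log2 ratios of -0.50 (-1.16 to 0.10) and 0.10 (-0.85 to 1.10). The models at admp, on 1L (102020926 to 102024918) and 1S (90051367 to 90056775), had 112 and 68 reads in library 1 and 413 and 180 in library 3. They were higher in library 3 by 3.21-fold (adjusted p = 1.10e-32) and 2.29-fold (adjusted p = 2.55e-09), the reverse of BMP4 and BMP7. The model at admp2, on 7L (57008424 to 57012912), had 35 and 69 reads and was also higher in library 3, by 1.69-fold (adjusted p = 0.0177). Of the bmp7.2 models, the one on 3L had 96 and 77 reads (adjusted p = 0.0560, exact binomial test) and the one on 3S had 4 and 1 and was not tested.

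Chordin stood above all other antagonists of the family. Its S copy on 5S (81718868 to 81735459, plus strand, 3863 exon bases) had 7006 and 13238 reads, or 70.1 and 117 RPKM in libraries 1 and 3. The model on 5L (97315412 to 97328158, plus strand, 3742 exon bases) had 1096 and 3429 reads, or 11.3 and 31.3 RPKM. Both were higher in library 3, by 1.67-fold on 5S and 2.77-fold on 5L, with adjusted p values of 1.24e-274 and 5.33e-216 in the exact binomial test. The 5L difference was matched by 0.544% of models at 10 CPM or more and the 5S difference by 6.07%.

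Follistatin, a protein that binds activin and BMPs, was higher in library 3 from both copies. The model on 1L (196564504 to 196573199, minus strand) had 320 and 954 reads (7.51 and 19.8 RPKM) and the model on 1S (161373913 to 161399600, minus strand) 128 and 369 (2.41 and 6.14 RPKM). Library 3 was the higher by 2.63-fold and 2.52-fold, with adjusted p values of 3.27e-56 and 4.86e-21 in the exact binomial test. Noggin models held few reads. At nog, the model on 9_10L had 55 and 114 reads and was 1.80-fold higher in library 3 (adjusted p = 0.000583), and the model on Scaffold27 (3462853 to 3463876) had 19 and 30 (adjusted p = 0.423). At nog2, the 9_10S model (93095773 to 93096429) had 2 and 22 reads and a log2 ratio of 2.27 on CPM + 0.1 (adjusted p = 0.000356, exact binomial test). The counting interval, from the reads with nothing added, ran from 1.26 to 6.42. With 0.5 and 1 CPM added in place of 0.1, the ratio was 1.12 and 0.70, below that interval. The nog2 model on 9_10L had 6 and 8 reads. At nog4, 1 read on 4L and 6 on 4S were found in library 1 and none in library 3, which allows up to 0.103 CPM there.

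Gremlin was the only antagonist model tested that was called lower in library 3, where 6 of 9 were called higher. Over all models tested, 22.6% were lower and 29.8% higher. The 6 include both models of CHRD and of FST and the nog2 model with 2 and 22 reads. The nog4 models, with 1 and 6 reads against 0, were not tested. GREM1 on 8L (88265715 to 88281159, minus strand), a member of the cerberus and DAN group, had 132 reads in library 1 and 46 in library 3, or 2.05 and 0.632 RPKM. It was 3.11-fold lower in library 3 (adjusted p = 2.01e-12, exact binomial test).

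Among the modulators, twsg1 and bmper were lower in library 3 and kcp was higher. The twsg1 copies were abundant, with 1826 and 1556 reads on 6S (82751693 to 82772618; 40.2 and 30.3 RPKM) and 435 and 379 on 6L (104031888 to 104046336; 10.9 and 8.42 RPKM). Both were lower in library 3, with log2 ratios of -0.41 (-0.51 to -0.31) and -0.37 (-0.58 to -0.17) and adjusted p values of 2.49e-15 and 0.000704 in the exact binomial test. The twsg2 models had 69 reads in each library on 1L and 70 and 135 on 1S, and the latter was 1.68-fold higher in library 3 (adjusted p = 0.000779, exact binomial test). The model at bmper, on 6L (60860417 to 61009215), had 473 and 215 reads (7.11 and 2.86 RPKM) and was 2.47-fold lower in library 3 (adjusted p = 2.17e-29). The model at kcp, on 3L (77869579 to 77926058), the longest of the family with 9362 exon bases, had 1276 and 2613 reads (5.27 and 9.55 RPKM) and was 1.81-fold higher in library 3 (adjusted p = 5.81e-70). Since both carry the symbol BMPER, their sum hid the difference, at 12.4 RPKM in each library.

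The protease BMP1 was near equal from its L and S copies. The 3L model (122477378 to 122534864, plus strand) had 915 and 1567 reads, or 7.72 and 11.7 RPKM, and the 3S model (22907327 to 22948326, minus strand) 890 and 1521, or 8.69 and 13.1 RPKM. Both were 1.51-fold higher in library 3, with adjusted p values of 5.30e-23 and 3.68e-22 in the exact binomial test. Among models at 10 CPM or more, 11.3% and 11.5% differed by as much.

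Set beside each other, the sums of antagonists and of ligands changed their proportion between the libraries, with chordin and bmp7.1 as their largest parts. The antagonist models summed to 95.7 RPKM in library 1 and 179.5 in library 3, and chordin made up 85.0% and 82.7% of this. The ligand models summed to 97.0 and 65.8 RPKM, of which bmp7.1 made up 65.5 and 32.0 RPKM. Of the other ligand genes, bmp4 stood at 25.5 and 21.9 RPKM and admp at 3.04 and 8.91 RPKM, so the ligands did not move together. Antagonist RNA was thus 0.987 times ligand RNA in library 1 and 2.73 times in library 3 (mean 1.86 ± 1.23, SD, n = 2). With the admp and admp2 models taken out of the ligands the ratios were 1.03 and 3.24. With 2 libraries these proportions are a description, and their mean rests on values that lie far apart. The trend of library differences with exon length was not removed from these sums, and its part in the change of proportion was not tested.

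The allotetraploid genome of X. laevis keeps an L and an S copy of many genes, and the members' copies were about as unequal as those of other genes. In 10 cases a member had exactly 1 model on the L and 1 on the S chromosome of a number and at least 10 reads. In 5 of them the same copy was at least 2-fold higher per exon kilobase in both libraries: the L copy for bmp7.1, bmp7.2 and FST (3, beside 30.8% of 5967 such cases in the table) and the S copy for CHRD and twsg1 (2, beside a background of 20.9%). Among all such cases, 51.7% passed in either direction, so 5 of 10 is near the background. The median size of the log2 ratio was 1.35 for the members and 1.31 for all. For CHRD, the 5L model was taken as the L copy without a decision between chrd.1.L and chrd.2.L.

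**Figure D4:**
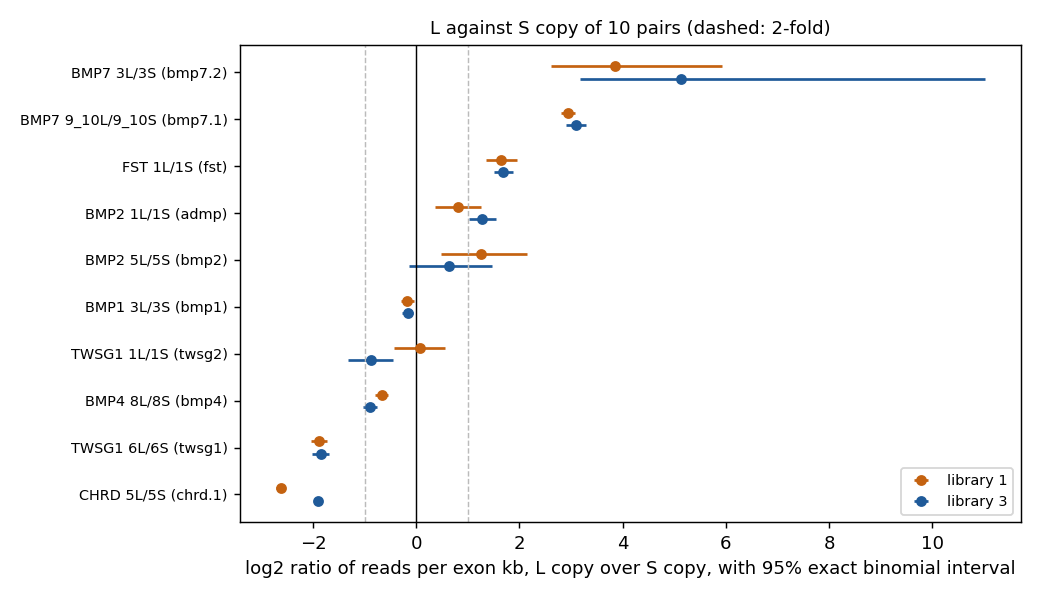
L copy against S copy for 10 cases; the horizontal axis is the log2 ratio of reads per exon kb with a 95% exact binomial interval, colours are the libraries and dashed lines mark 2-fold. The ratios of FST, bmp7.1, twsg1 and BMP1 nearly coincide between libraries, while that of CHRD moves from -2.63 to -1.90.

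For bmp7.1 the L copy exceeded the S copy by a log2 ratio of 2.94 in library 1 and 3.09 in library 3, and for FST by 1.64 and 1.69. For twsg1 the ratio was -1.88 and -1.85, and for BMP1 -0.17 in each. For none of these 4 did the share of L reads pass the exact Fisher test, although bmp7.1, FST, twsg1 and BMP1 each differed in level between the libraries. CHRD did pass: the L copy gave 13.9% of chordin RPKM in library 1 and 21.1% in library 3 (adjusted p = 1.25e-40, exact Fisher test). In all, 3 of the 10 passed, beside 30.9% of 5967 cases. A change of the ratio as large was seen in 25.9% of all cases. The share of L reads also differed for BMP4 (adjusted p = 0.0428) and twsg2 (adjusted p = 0.0149, exact Fisher test), where the log2 ratio was 0.065 (-0.44 to 0.57) in library 1 and -0.88 (-1.32 to -0.45) in library 3. Counts of near-identical copies depend on how reads that fit both were placed, and the labels give reads of 2 lengths without saying which library had which. The part of read length in these ratios was not tested.

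The wider BMP pathway is given by lists, whose counts stand beside the 29.8% higher and 22.6% lower of all models tested and their median log2 ratio of 0.05. Of 33 models of other BMP-type and related ligands, 8 reached 1 CPM in both libraries, and of 13 tested 2 were higher in library 3 and 1 lower, with a median log2 ratio of -0.20. The higher calls were GDF3 and a NODAL model on 3L, and the lower call was another NODAL model on 3L. The tested models of BMP3, GDF10, GDF6, GDF11, INHBA and INHBB had no call. GDF3 led them on Scaffold21 at 77.4 and 129.7 RPKM, and a NODAL model on 3L stood at 35.4 and 28.3 RPKM. The part of the injected xnr2 RNA in the reads of NODAL models was not tested. No read was found for models of BMP10 (3L), BMP8A (2S), GDF5 (9_10L), GDF6 (5S), INHBB (2L and 9_10S) and 3 of NODAL (3L). Of 53 models of other extracellular modulators 26 reached 1 CPM, and of 37 tested 15 were higher in library 3 and 7 lower, with a median log2 ratio of 0.15. FSTL1 on 2S, a follistatin-like secreted protein, was the highest by mean CPM, at 394 and 503 RPKM, above chordin, and the Nodal antagonist DAND5 on Scaffold20, the next by mean CPM, stood at 83.1 and 100 RPKM. Models of TLL2 (8L and 4S), CHRDL1 (8L), SFRP2 (2L), NBL1 (7S), SFRP5 (7L), CER1 (1L), VWC2L (9_10L) and OLFML1 (4L) had no read. Other models of some of these symbols did have reads, such as SFRP2 on 1L at 45.4 and 43.2 RPKM and VWC2L on 4L at 7.27 and 6.33 RPKM.

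On the receiving side, 18 of 21 receptor models reached 1 CPM, and of 19 tested 10 were higher in library 3 and 2 lower, with a median of 0.30. Both lower ones were BAMBI, a pseudoreceptor that BMP signals are known to induce, at 51.4 and 39.9 RPKM on 6L and 11.1 and 7.39 RPKM on 6S. A pair of ACVR1 models (2S and 2L) had no read. Of 21 models of SMADs, SMAD ubiquitin ligases and related regulators, 20 reached 1 CPM, 8 were higher and 4 lower, with a median of 0.12, and the BMP-specific transducer SMAD1 led on 1L at 21.1 and 23.1 RPKM, with SMAD4 at 10.8 and 13.5 RPKM. Of 42 models of BMP response genes, 39 reached 1 CPM, and here 20 were lower in library 3 and 9 higher, with a median of -0.12. ID3, an inhibitor of bHLH factors and a direct BMP target, led on 2S at 464 and 380 RPKM and on 2L at 257 and 250 RPKM. ID1 and SIZZLED of the response genes, SMAD5 and the receptors ACVR1C and ACVRL1 matched no symbol, so these counts leave them out. The list of response genes shares BAMBI, SMAD6 and SMAD7 with the other lists and several genes with the marker lists, so these counts are not independent.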

How the data were processed

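The authors deposited, per the file headers, exon read counts per Mayball gene model (HOMER, X. laevis assembly 9.1), rescaled by 1 constant per library to a signal with equal sums. Per the submitters' processing notes, reads had been aligned with STAR 2.4.0k. The other deposited numbers used are exon lengths. Division of the signal by the value of 1 read left 100% of nonzero values whole (tolerance 0.05). From these reads CPM, RPKM, log2((CPM + 0.1)/(CPM + 0.1)) and exact binomial intervals (95%) were computed with Python 3.11.15 and scipy 1.17.1. The intervals came from the reads alone, without the 0.1 CPM or 0.5 reads that the ratios add. A model needed 10 reads for a test. The test was checked on simulated reads with counting error only, so that check does not cover spread between pools. The header names 4 libraries, of which 2 were analysed here; 0 columns of other samples were used. edgeR 4.0.16 gave TMM factors and DESeq2 1.42.0 size factors as alternatives. With 1 group no count model between groups could be fitted. Copy ratios add 0.5 reads. All models of the 10 symbols are named. Of the wider lists, models were named for a high mean CPM or for having no read. Others, such as GSC, were named outside this rule with their values known. Members and lists were chosen with earlier results of these data known, and the neighbour matching and the Fisher test of copy shares were chosen after seeing them. Alternatives were other scales, pseudocounts, minimum reads, exon length classes and leaving out each library.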

Additional observations from a re-analysis of the deposited data

How the results depend on the processing

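Under TMM factors, DESeq2 size factors, header tag totals and correction in 10 classes of exon length, 13 member models were higher in library 3 and 9 lower, against 13 and 8 as reported. Over all models these settings gave 4826 higher and 4929 lower (TMM), 5038 and 4749 (DESeq2), 5177 and 4611 (header totals) and 4655 and 4758 (length classes), against 5617 and 4260 as reported, so under TMM and length classes lower calls outnumbered higher ones. The added one was bmp7.2 on 3L (adjusted p of 0.0132 to 0.0654 over all alternatives, 0.0560 as reported), which also passed with a minimum of 100 reads. The BMP4 model on 8S lost its call with no minimum of reads, and its adjusted p in the other alternatives lay between 0.00169 and 0.0459. Requiring 1.5-fold left 13 higher and 4 lower models, and requiring 2-fold left 6 higher and 4 lower. Only models with the member's own RefSeq name, an alternative chosen after seeing the data, gave 7 higher and 8 lower of 19 tested. At 5 CPM in place of 1 CPM, 13 models passed in both libraries. The shares over all models at 1.5-fold and at 5 CPM were not computed, so these counts have no background. Pseudocounts of 0.5 and 1 CPM moved the median log2 ratio from 0.43 to 0.31 and 0.22. Without correction for length the ligands summed to 204.8 and the antagonists to 480.9 CPM, and the BMP1 copy ratio changed sign to 0.041 from -0.17. Leaving out each library gave medians of 4.33 to 6.16 CPM, 23 to 24 models at 1 CPM, median L to S ratios of 0.23 to 0.43, ligand sums of 65.8 to 97.0 RPKM, antagonist sums of 95.7 to 179.5 RPKM, their ratio from 0.987 to 2.73, and a twsg2 copy ratio of -0.88 to 0.065. Counted over each pair of a tested model and an alternative, 205 library differences kept direction and call, 5 gained a call (all bmp7.2 on 3L) and 1 lost it. Pseudocounts enter only the ratio and not the test, so those alternatives could not change a call or a direction. The difference between libraries has no value with 1 library left out. No paired analysis was possible because there is 1 group.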

Other observations

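Some modulators outside the 10 symbols are given here, picked after their values were seen. Their symbols were not checked by neighbours, and their action on BMPs in these caps was not tested. TLL1, a tolloid-type protease related to BMP1, stood at 17.9 and 17.0 RPKM in libraries 1 and 3 on Scaffold62 and at 12.4 and 12.8 RPKM on 1S, above the BMP1 models in library 1, and neither model passed the exact binomial test (adjusted p = 0.114 and 0.531). FSTL3, a relative of follistatin, went the other way from FST, with 42 and 20 reads on 1S and 15 and 5 on 1L (adjusted p = 0.00384 and 0.0407, exact binomial test). HTRA1, a secreted protease, had 37 and 116 reads on 7S (adjusted p = 5.26e-08), while its models on 3L (19 and 32 reads) and 7L (4 and 6) were not called, and NBL1, of the DAN group, 49 and 106 reads on 7L (adjusted p = 0.000439). The largest difference in that list was in SFRP5, a secreted Frizzled-related protein, with 150 and 6 reads on 4S and 127 and 9 on 4L, log2 ratios of -4.27 and -3.62 (adjusted p = 1.05e-39 and 7.96e-30, exact binomial test).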
